A study of Homo sapiens with 2 samples.

Results

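The 10 genes described here encode heterogeneous nuclear ribonucleoproteins (hnRNPs): HNRNPU, HNRNPUL1, HNRNPUL2, HNRNPA1, HNRNPA2B1, HNRNPC, HNRNPD, HNRNPK, HNRNPL and HNRNPM. They are 10 of 19812 protein-coding genes on chromosomes 1 to 22 and X. A peak belonged to a gene when its summit lay within 1000 bp of any annotated transcription start site (TSS) of that gene, which gave 18 distinct peaks out of 8608. The genes were chosen by, and divided into HNRNPU with its paralogues and the other 7 on, the fold enrichment and height of these peaks. Counts and heights of the members are therefore a description and carry no test.

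ING5 occupancy was measured by ChIP-seq in untreated HepG2 cells, a human liver cancer line, with an antibody against ING5 on sonicated nuclei. ING5 is a plant homeodomain (PHD) finger protein that reads methylated histone H3 in MYST acetyltransferase complexes. The ING5 group and the input DNA group, which received no antibody, hold 1 library each, with 12416135 and 9915132 fragments after filtering. No value has a replicate, so 95% intervals are exact Poisson or binomial intervals and cover counting error only. None of 15 hepatocyte marker genes, ALB, APOA1 and HNF4A among them, had a promoter peak (upper bound 21.8%), nor did any of 5 blood, 5 fibroblast and endothelial or 4 neuronal markers. The defining markers of the labelled cell type were thus absent from the promoter peaks, which 30.9% of all protein-coding genes had. ING5 occupancy is not a measure of expression, so nothing about cell identity is read from this.

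hnRNPs bind RNA polymerase II transcripts as they emerge and package them in the nucleus. They influence which splice sites are used, and many also act in mRNA export, stability or translation. HNRNPU, also known as scaffold attachment factor A, binds both RNA and DNA, and HNRNPUL1 and HNRNPUL2 are its paralogues. The family is expressed in nearly all cell types, and several of its genes have an RNA start of another gene close by on the opposite strand.

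The promoters of HNRNPU, HNRNPUL1 and HNRNPUL2 are shown because their peaks were the highest of the 10. Each stretch is the 250 bases before the canonical start, 5′ to 3′ on the strand of the gene, from RefSeq (GRCh38.p14). Capitals mark the letters CCAAT and GGGCGG on either strand. The HNRNPU stretch is chr1:244864544-244864793 on the minus strand, and all 250 bases lay under the peak.
HNRNPU: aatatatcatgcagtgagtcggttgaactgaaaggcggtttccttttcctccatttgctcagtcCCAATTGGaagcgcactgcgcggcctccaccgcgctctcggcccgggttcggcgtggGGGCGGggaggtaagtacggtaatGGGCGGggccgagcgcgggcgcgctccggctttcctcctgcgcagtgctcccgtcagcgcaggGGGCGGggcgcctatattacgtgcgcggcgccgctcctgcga
The HNRNPUL1 stretch is chr19:41264122-41264371 on the plus strand, of which the last 20 bases lay under the peak.
HNRNPUL1: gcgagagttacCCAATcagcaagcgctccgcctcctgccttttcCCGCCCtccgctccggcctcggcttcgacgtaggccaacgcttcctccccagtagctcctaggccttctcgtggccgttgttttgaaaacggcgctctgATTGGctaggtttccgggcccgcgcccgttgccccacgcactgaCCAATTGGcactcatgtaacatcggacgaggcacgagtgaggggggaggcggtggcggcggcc
The HNRNPUL2 stretch is chr11:62727458-62727707 on the minus strand, of which 112 bases lay under the peak.
HNRNPUL2: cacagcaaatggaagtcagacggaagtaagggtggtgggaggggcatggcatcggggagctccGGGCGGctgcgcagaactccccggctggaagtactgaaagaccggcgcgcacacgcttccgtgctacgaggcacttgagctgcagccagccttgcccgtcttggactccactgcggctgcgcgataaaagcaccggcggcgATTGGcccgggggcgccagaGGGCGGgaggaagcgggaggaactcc

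The next promoters, of HNRNPA2B1 and HNRNPK, are shown because each gene lies back to back with another coding gene and has several low peaks around its start. The HNRNPA2B1 stretch is chr7:26200747-26200996 on the minus strand, and no base of it lay under a peak.
HNRNPA2B1: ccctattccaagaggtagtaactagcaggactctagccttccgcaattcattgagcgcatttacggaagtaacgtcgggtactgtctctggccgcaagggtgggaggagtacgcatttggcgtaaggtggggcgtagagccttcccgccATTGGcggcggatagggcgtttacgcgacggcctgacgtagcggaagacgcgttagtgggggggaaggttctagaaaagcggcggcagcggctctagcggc
The HNRNPK stretch is chr9:83980216-83980465 on the minus strand, and 4 bases of it lay under a peak.
HNRNPK: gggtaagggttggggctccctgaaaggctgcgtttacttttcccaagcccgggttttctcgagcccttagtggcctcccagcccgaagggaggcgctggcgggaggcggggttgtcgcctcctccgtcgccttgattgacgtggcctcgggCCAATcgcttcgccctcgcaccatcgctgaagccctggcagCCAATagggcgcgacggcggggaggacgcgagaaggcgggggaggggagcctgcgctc

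RefSeq promoters of 300 bases (250 before to 50 after the canonical start) were matched for 9 of the 10 genes and for 14420 protein-coding genes in all. HNRNPA1 was not matched. CCAAT was found on either strand in 7 of the 9, namely HNRNPU, HNRNPUL1, HNRNPUL2, HNRNPA2B1, HNRNPC, HNRNPK and HNRNPL, against 5329 of all 14420 promoters and 37.1% of the 4796 with a promoter peak. GGGCGG was found in 6 of the 9, among them HNRNPU, HNRNPUL1 and HNRNPUL2, against 62.7% of all promoters and 77.5% of those with a peak. In HNRNPU and in HNRNPUL1 a CCAAT on each strand overlapped to form the same 8 letters, CCAATTGG. ATGGCGGC was found in HNRNPUL1, HNRNPL and HNRNPM (5.04% of all promoters), TATAAA in HNRNPC and HNRNPD (9.42%), CACGTG in HNRNPD and HNRNPM (8.95%) and CCGGAAG in HNRNPD (15.1%). TGACGTCA, the NRF1 palindrome and the ZBTB33 (Kaiso) palindrome were not in the window of any of the 9. They are rare, in 2.84%, 1.03% and 0.707% of all promoters, so nothing is read from their absence. These are matches of letters, not measured sites.

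HNRNPU had 1 promoter peak, the highest of the 10 genes, with 55 fragments over its summit (95% interval 41.4 to 71.6). The peak covered chr1:244863599-244865257, 1659 bp, and ran from 714 bp before to 944 bp after the canonical start. Its summit lay 738 bp downstream of that start, in the coding part of exon 1, and 23 bp from an annotated start of a long noncoding RNA. Among the 6126 protein-coding genes with a promoter peak, 99.8% had a lower one by fragments. The height divided by the local background (fold enrichment, with 1 added to both) was 23.1.

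HNRNPUL2 had 1 promoter peak with 49 fragments (36.3 to 64.8), at chr11:62726127-62727569. It was 1443 bp wide, and its summit lay 855 bp downstream of the canonical start, in intron 1. Its fold enrichment of 26.98 was above that of HNRNPU although its summit held fewer fragments. The local background was 0.853 fragments at HNRNPUL2, the lowest value in the list, and 1.42 at HNRNPU. By fragments the height of each of the 2 genes lies inside the interval of the other, so their order cannot be told at this depth. The peak is also within 1000 bp of a start of HNRNPUL2-BSCL2, a readthrough locus that begins close by.

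HNRNPUL1 had 2 promoter peaks and was the lowest of the 3. The higher one, at chr19:41264352-41266282, had 24 fragments (15.4 to 35.7) and 13.5-fold enrichment, with its summit 252 bp downstream of the canonical start in the coding part of exon 1. Its interval lies below those of HNRNPU and HNRNPUL2. It overlaps those of all 7 members outside this group, the lowest, HNRNPL (4.12 to 17.1), included. The other HNRNPUL1 peak, of 188 bp and 9 fragments, lay 1635 bp upstream of the canonical start and 66 bp downstream of an alternative one. At 1931 bp, the main peak of HNRNPUL1 was the widest of the 10 genes' peaks despite its moderate height. Of the 301 genes whose best peak was within 2 fragments of it, 97.3% had a narrower one, and their median width was 801 bp.

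**Figure D1:**
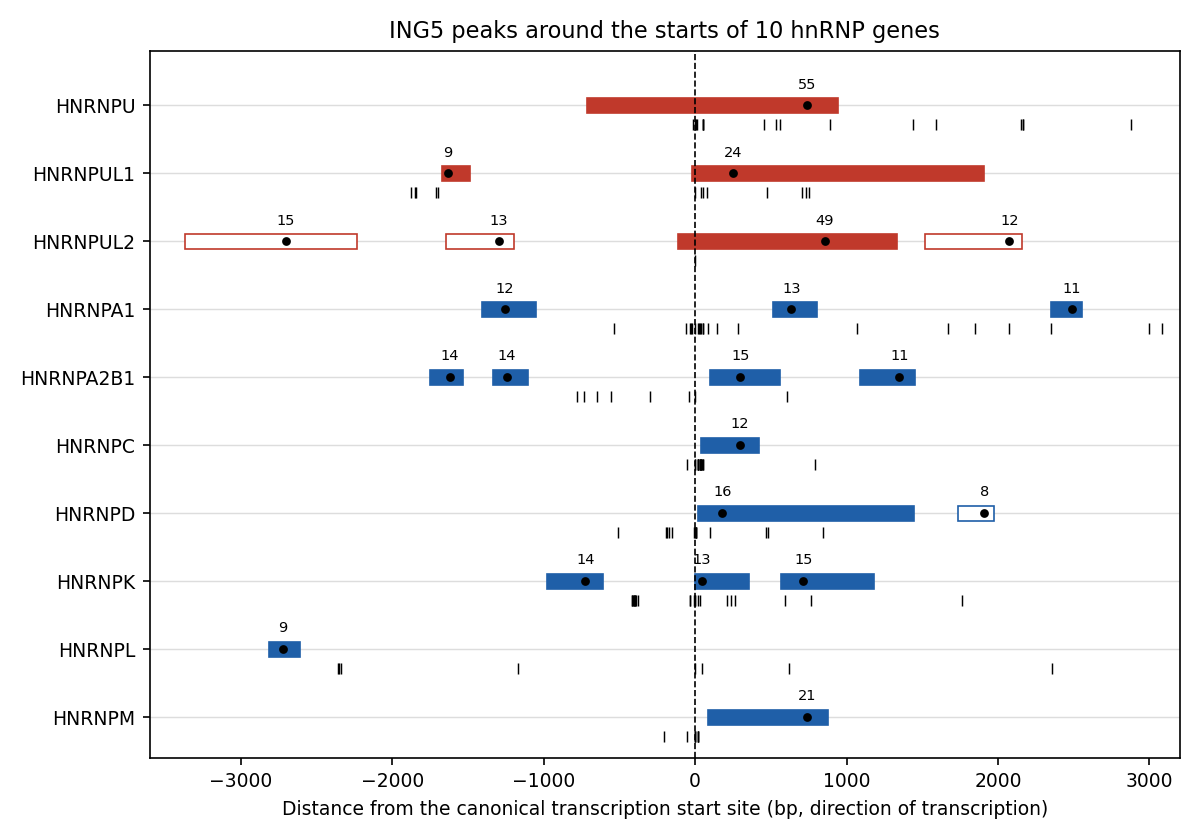
Peaks around the 10 genes, by distance in bp from the canonical start (dashed line), in the direction of transcription. Bars are peaks (filled: promoter peaks; open: other peaks within 5000 bp of a start), dots are summits with their fragment counts, and ticks are annotated starts within the range drawn; red marks HNRNPU and its paralogues, blue the other 7. The filled red bars with 24, 49 and 55 fragments are wide and reach over the dashed line, while HNRNPL has a single bar far upstream of it.

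HNRNPA1, a splicing repressor that also shuttles between nucleus and cytoplasm, had 3 promoter peaks with 12, 13 and 11 fragments. They lay 1258 bp upstream, 635 bp downstream and 2488 bp downstream of the canonical start. Only the middle one, in intron 1, was within 1000 bp of the canonical start; its fold enrichment of 6.22 was the best of the 3, with an interval of 6.92 to 22.2 fragments. The last lay in the coding part of exon 8, 135 bp from the start of another annotated transcript. HNRNPA1 has 74 annotated pseudogene copies, the most of the 10 genes. The names of the aligned files in the peak list's header mark duplicates and multiply mapped reads as removed; the part of this in the height of HNRNPA1 was not tested.

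HNRNPA2B1, which acts in splicing and mRNA transport, had 4 promoter peaks, with 14, 14, 15 and 11 fragments from upstream to downstream. Their summits lay 1618 bp and 1245 bp upstream and 298 bp and 1349 bp downstream of the canonical start, and none covered that start. All 4 heights fall within the interval of any one of them, so no peak stood out; the best by fold enrichment reached 7.10. Of the genes with a promoter peak, 0.735% had 4 or more and 23.0% had more than 1. In this series 4 of the 10 members, HNRNPUL1, HNRNPA1, HNRNPA2B1 and HNRNPK, had more than 1.

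HNRNPC, which binds uridine-rich tracts in introns, had 1 peak with 12 fragments (6.20 to 20.96) and 7.01-fold enrichment, 294 bp downstream of the start in intron 1. HNRNPD, or AUF1, which binds AU-rich elements and acts in mRNA decay, had 1 promoter peak with 16 fragments (9.15 to 25.98) and 9.17-fold enrichment, 180 bp downstream in the 5′ UTR. At 1427 bp the HNRNPD peak was wider than those of 98.7% of the 1744 genes within 2 fragments of its height, whose median width was 464 bp. A further HNRNPD peak with 8 fragments missed the window by the smallest margin of any member, at 1069 bp from a start, while the HNRNPUL2 summit at 855 bp was the farthest inside it.

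HNRNPK, a poly(C)-binding protein with KH domains, had 3 promoter peaks with 14, 13 and 15 fragments, 725 bp upstream, 43 bp downstream and 715 bp downstream of the canonical start. They were alike in height, and the best by fold enrichment reached 8.50 (interval 8.40 to 24.7 fragments). HNRNPM, a splicing regulator with RNA recognition motifs, had 1 peak with 21 fragments (13.0 to 32.1) and 11.9-fold enrichment, 739 bp downstream of the start in intron 1. It was the highest of the 7, and its interval overlaps those of the other 6. HNRNPL, which binds CA repeats, had the lowest, with 9 fragments (4.12 to 17.1) and 5.40-fold enrichment in 206 bp. That peak lay 2720 bp upstream of the canonical start and 359 bp upstream of a second annotated start, where the gene begins in RefSeq. So HNRNPL had no peak at the canonical promoter used here at this depth, and this absence depends on which start is taken.

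**Figure D2:**
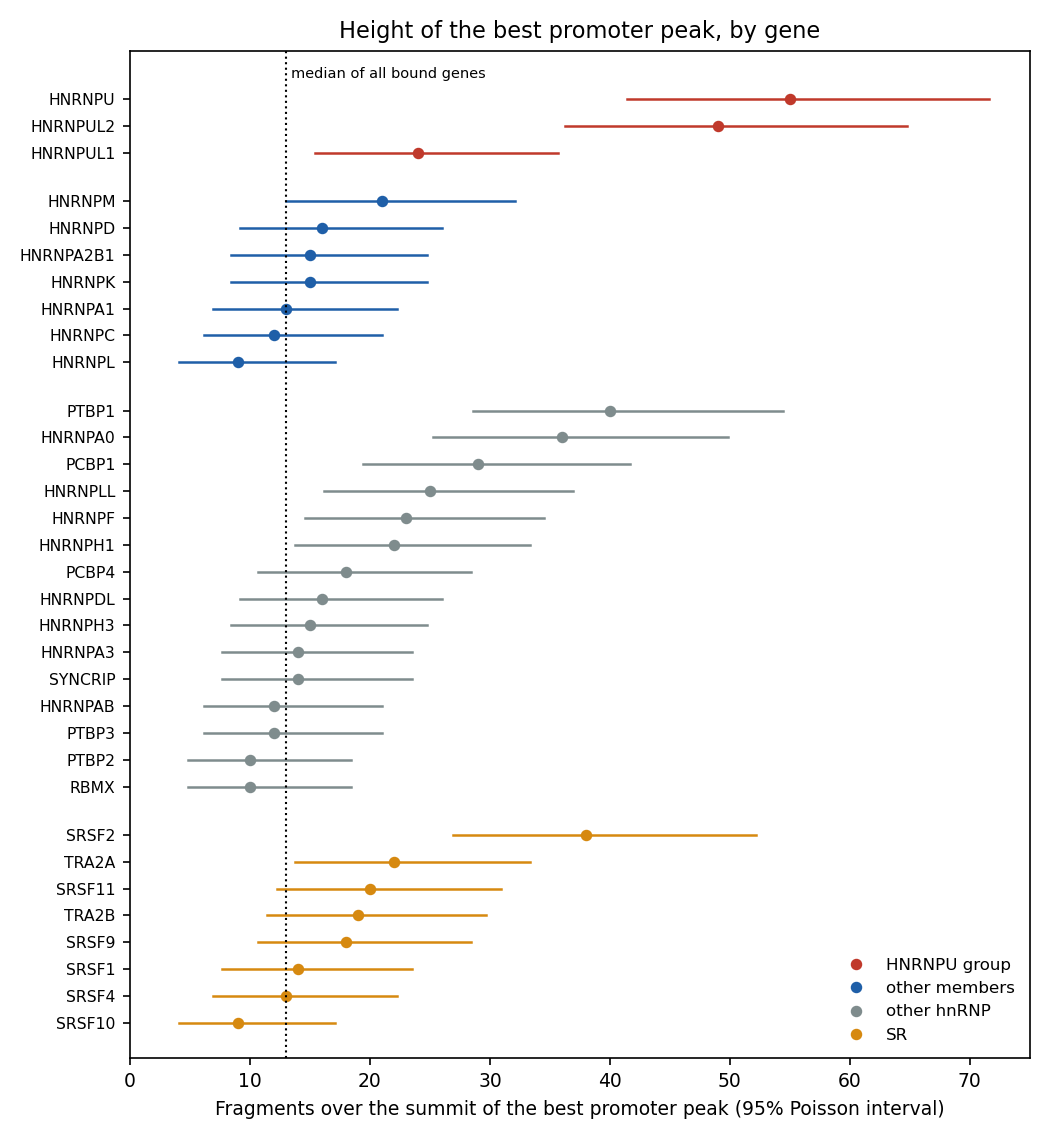
Fragments over the summit of the best promoter peak of each gene (dots) with exact Poisson 95% intervals (lines), for the 10 genes and for the other hnRNP and SR genes that have a promoter peak; the dotted line is the median of 13 fragments over all 6126 such genes. HNRNPU and HNRNPUL2 stand at 55 and 49 fragments, HNRNPUL1 at 24, and the other 7 members between 9 and 21.

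A promoter peak was found at 10 of the 10 genes, against 30.9% of all protein-coding genes. Since the genes were picked with the peak list in view, nothing is read from that difference. At the canonical start alone the count was 9 of 10, against 27.9% of all genes. The members have many annotated starts, from 2 at HNRNPUL2 to 30 at HNRNPU with a median of 18, against a median of 5 over all genes. The share of genes with a peak rose with that number, from 13.5% of genes with 1 start to 44.9% with 11 to 20 and 51.9% with 21 to 40, and stood at 44.3% above that. The part of this in the members' count was not tested.

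Fold enrichment of the best peak had a median of 23.1 in HNRNPU and its paralogues (13.5 to 26.98) and 7.10 in the other 7 (5.40 to 11.9), beside 7.01 over all genes with a promoter peak. The ranges of the 2 groups do not overlap, but they were divided with these values known. By fragments, the interval of HNRNPUL1 overlaps those of all the other 7. Only 4 genes of the whole list had a higher best fold enrichment than HNRNPUL2 and 13 a higher one than HNRNPU, against 203 for HNRNPUL1. The members with a best peak among the 1000 most significant of the list were 4, namely HNRNPU, HNRNPUL1, HNRNPUL2 and HNRNPM. Of the 6126 genes with a promoter peak 945 had one, which is 4.77% of all genes. Again 4 members had a best peak of 1000 bp or more, the 3 genes of the HNRNPU group and HNRNPD, against 6.71% of genes with a promoter peak.

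**Figure D3:**
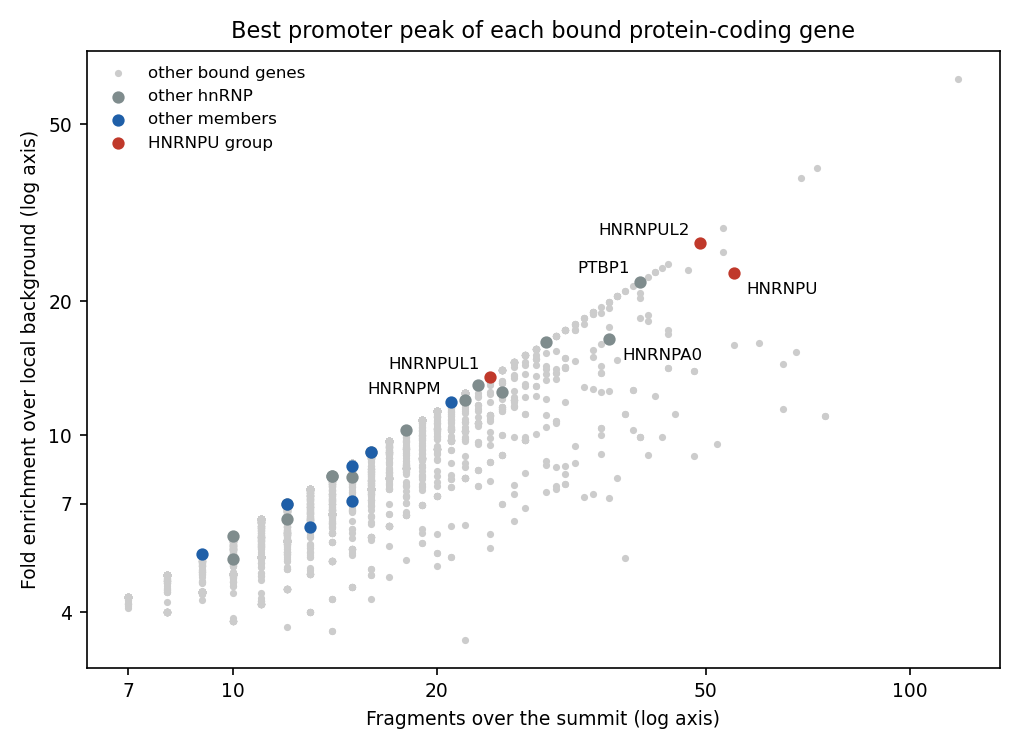
Fragments over the summit (x axis, log scale) and fold enrichment over local background (y axis, log scale) of the best promoter peak of 6126 protein-coding genes, with the HNRNPU group, the other 7 members and other hnRNP genes in colour. Points on the upper edge stand over the lowest background of 0.853 fragments; HNRNPUL2 lies on that edge and HNRNPU, over 1.42 fragments, below it and to the right.

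**Figure D4:**
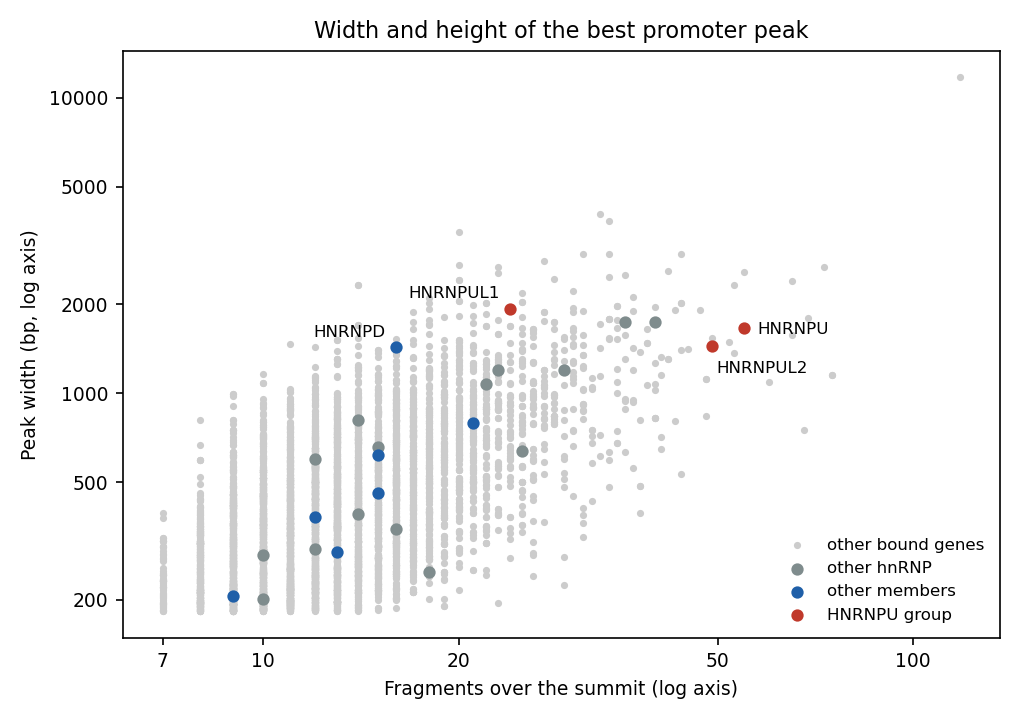
Fragments over the summit (x axis, log scale) and width in bp (y axis, log scale) of the same best peaks. HNRNPUL1 at 1931 bp and HNRNPD at 1427 bp lie near the upper edge for their heights, whereas HNRNPU at 1659 bp and HNRNPUL2 at 1443 bp lie within the spread of the few genes as high.

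Measured to the nearest annotated start of the gene, of whatever transcript, 11 of the 18 summits lay downstream and 7 upstream. The canonical start gave another count: 11 summits lay within 1000 bp of it, 10 of them downstream and 1, at HNRNPK, upstream. HNRNPU is an example of the difference, with its summit 738 bp downstream of the canonical start and 152 bp from the nearest one, on the upstream side. By the best peak of each gene at its canonical start, 9 of 9 members had it downstream, against 82.5% of all genes with a peak there. By place in the canonical transcript, 7 of the 18 summits fell in intron 1, 4 in exon 1 and 6 upstream, with the last in exon 8 of HNRNPA1. Shares over all promoter peaks were not counted for these places or for the side of the nearest start. Nothing particular to the members is read from those counts. Outside the promoter windows, 1 further summit lay inside HNRNPUL2 and 1 inside HNRNPD, both in intron 1, and none inside the other 8 genes. Genes with many starts, such as HNRNPA1 with 29, leave less room outside these windows. The share over all genes was not counted.

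Among the 10 genes, 4 have an opposed coding gene whose canonical start lies 590 to 1029 bp upstream of their own. The share of all protein-coding genes with such a neighbour was not counted, so the 4 are not read as a trait of the family. CBX5 and CBX3 encode heterochromatin protein 1 (HP1) proteins that bind methylated histone H3, and lie opposite HNRNPA1 and HNRNPA2B1, at 604 bp and 999 bp. RMI1, a subunit of the BLM helicase and topoisomerase complex, lies 590 bp from HNRNPK, and TTC9C 1029 bp from HNRNPUL2. Peaks within 1000 bp of a start of both genes numbered 3 at HNRNPA2B1 and CBX3, 2 at HNRNPK and RMI1, 1 at HNRNPA1 and CBX5, and none at HNRNPUL2 and TTC9C. With the peak shared by HNRNPUL2 and HNRNPUL2-BSCL2, 7 of the 18 promoter peaks were shared with another coding gene, against 18.7% of all promoter peaks. By genes, 4 of the 10 members had a shared peak, against 33.0% of genes with a promoter peak.

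At 3 of these pairs the peaks were low on both sides. The summits nearest to CBX3 held 14 and 14 fragments, 246 bp and 619 bp downstream of its start, and the HNRNPA2B1 side held 15 and 11. RMI1 had 14 fragments 135 bp downstream of its start, beside 13 and 15 within HNRNPK. CBX5 had 12 fragments 654 bp downstream of its start, beside 13 and 11 within HNRNPA1. In these 3 pairs every height lies inside the intervals of the others, so neither direction stood out. HNRNPUL2 and TTC9C differed: TTC9C had 13 fragments (6.92 to 22.2) 268 bp downstream of its start, below the interval of the 49 at HNRNPUL2 (36.3 to 64.8).

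**Figure D5:**
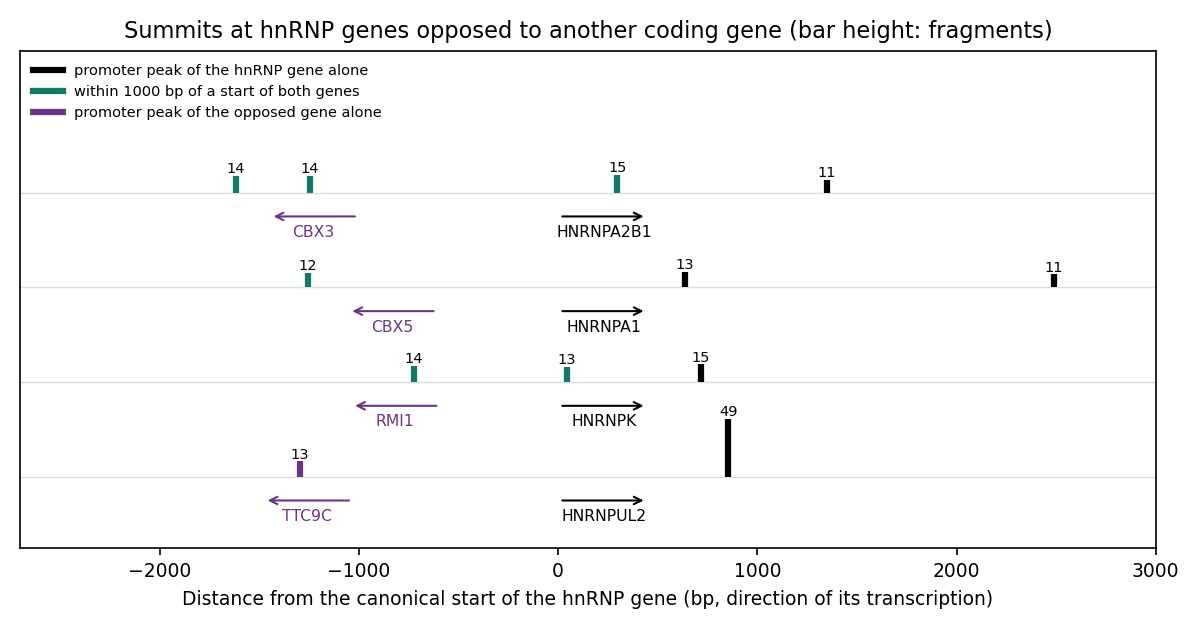
Summits at the 4 hnRNP genes with an opposed coding gene, by distance in bp from the canonical start of the hnRNP gene; arrows mark the canonical starts and directions, and bar heights and numbers give fragments. Bars at HNRNPA2B1 and CBX3, HNRNPA1 and CBX5, and HNRNPK and RMI1 range from 11 to 15 fragments on both sides, while HNRNPUL2 has 49 and TTC9C 13.

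Local background was above its lowest value at all 10 promoter peaks of HNRNPA1, HNRNPA2B1 and HNRNPK (0.871 to 1.25 fragments) and at HNRNPU, which has no opposed coding gene within 5000 bp upstream. The other 7 member peaks, that of HNRNPUL2 among them, stood at the lowest value. By the best peak of each gene, 6 of the 10 members stood at the lowest value, against 61.6% of all genes with a promoter peak.

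CpG content of the promoters was above the median of all 14420 promoters at all 9 genes with sequence. HNRNPC and HNRNPUL1 were below the median of those with a promoter peak. CpG observed over expected ranged from 0.844 at HNRNPC to 1.23 at HNRNPD, against a median of 0.790 over 14420 promoters and 0.887 over those with a promoter peak. HNRNPU stood at 1.19, HNRNPUL2 at 0.901 and HNRNPUL1 at 0.866, so the 3 genes with the highest fold enrichment did not stand together on this measure. GC content ranged from 49.3% at HNRNPC to 70.7% at HNRNPM, against a median of 64% over all promoters and 67.7% over those with a promoter peak.

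Beyond the 10 genes, 22 other hnRNP genes were examined, and 15 had a promoter peak (68.2%, 95% interval 45.1 to 86.1). PTBP1, or hnRNP I, which binds pyrimidine tracts, reached 40 fragments (28.6 to 54.5) and 22.1-fold enrichment, with an interval that overlaps those of HNRNPU, HNRNPUL2 and HNRNPUL1. The intronless genes HNRNPA0 and PCBP1, which encode an A/B-type hnRNP and a poly(C)-binding protein, reached 36 and 29 fragments, both with the summit in the coding sequence of exon 1. HNRNPLL, HNRNPF and HNRNPH1 reached 25, 23 and 22 fragments. So HNRNPU and HNRNPUL2 held the most fragments of the 25 hnRNP genes with a peak. Their intervals overlap those of PTBP1, HNRNPA0 (25.2 to 49.8) and PCBP1 (19.4 to 41.6). The overlap of HNRNPU, whose interval begins at 41.4, with PCBP1 is slight. Overlap of intervals does not settle whether 2 heights differ, and this order was not tested. HNRNPUL1 ranked among others of the family.

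The lower ones were PCBP4 with 18 fragments, HNRNPDL with 16, HNRNPH3 with 15, HNRNPA3 and SYNCRIP with 14 each, HNRNPAB and PTBP3 with 12 each, and PTBP2 and RBMX with 10 each. HNRNPDL is the paralogue of HNRNPD and lies 56.5 kb from it on chromosome 4; both had a best peak of 16 fragments and 9.17-fold enrichment. HNRNPA3 and HNRNPAB, of the A/B type, had 8.09-fold and 7.01-fold. The PCBP4 summit lay 6283 bp upstream of the canonical start, 279 bp from another PCBP4 start and 53 bp from one of ABHD14A. That of HNRNPH3 lay 663 bp from its nearest start and 121 bp from one of PBLD. The HNRNPDL and SYNCRIP summits were also within 1000 bp of another coding gene, but nearer to their own. No promoter peak was found at HNRNPH2, HNRNPR, PCBP2, PCBP3, RALY, RALYL or TAF15. Nor was there one at the 4 of 6 intronless copies in the annotation, HNRNPA1L2, HNRNPA1L3, HNRNPCL1 and HNRNPCL2. Multiply mapped reads are marked as removed, and the part of this in the absence at the copies was not tested.

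SR proteins, the other large family of splicing regulators, often act against hnRNPs at the same transcripts. Of 14 SR genes 8 had a promoter peak (57.1%, 28.9 to 82.3), an interval that overlaps that of the other hnRNP genes. SRSF2 led with 38 fragments (26.9 to 52.2) and 21.04-fold enrichment, followed by TRA2A with 10.4-fold and SRSF9 with 10.3-fold. The SRSF2 summit lay 313 bp from its nearest start and 142 bp from one of MFSD11, so this peak is shared. The median fold enrichment was 8.72 at the SR genes with a peak, 9.17 at the other hnRNP genes with a peak and 8.84 at the 10 members.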

How the data were processed

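One ING5 ChIP library was analysed; the input library entered only as the control of the peak list. The peak list came from MACS2 2.1.1.20160309, run on fragment pairs with a p-value cutoff of 1e-05, per the file headers. Its deposited pileup is a signal, in fragments covering the summit. Fold enrichment is a ratio as deposited, on a linear scale, and the deposited −log10 p ranked the peaks. The submitters' processing notes list fastp 0.19.6, Bowtie2 and deepTools. Those notes name GRCh37, but sequence names in the list belong to GRCh38, so its coordinates were read as GRCh38. RefSeq GRCh38.p14 gene starts equal the canonical starts used at 7 of the 10 genes. That compares 2 annotations and uses no peak position, so it does not bear on the build of the list.

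GRCh38 starts came from the original positions recorded in GENCODE 44. Local background was recovered as (pileup + 1) / fold − 1, and the lowest value was counted with a tolerance of 0.001 fragments. A gene's best peak had the highest −log10 p. Members and lists were chosen with earlier results of these data known. The genes named were all members, genes sharing their peaks, 22 other hnRNP genes (1 more was listed and is not reported here) and the 3 SR genes with the highest fold enrichment. Assignment was tested on simulated data. Python 3.11.15, pandas 2.3.3 and SciPy 1.17.1 were used. No test between groups was run; alternatives changed the window, the starts or the peaks kept.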

Additional observations from a re-analysis of the deposited data

How the results depend on the processing

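With 1 library, no spread between replicates limits these values, and a height of about 12 fragments cannot be told from one of 15. No paired analysis was possible because each group has 1 library. A window of 200 bp left 5 members (HNRNPU, HNRNPUL1, HNRNPA1, HNRNPD and HNRNPK) with 7 peaks, 0 of them shared and 5 downstream of the nearest annotated start (11 of 18 in the main analysis; all such counts here use that start), 6 other hnRNP genes, 3 SR genes and 13.5% of all genes; one of 3000 bp gave 13 shared peaks and 32.9% of genes. Canonical starts alone gave 11 member peaks, 3 of them shared, and 27.9% of genes; protein-coding transcripts alone gave 30.2%. The 4304 peaks with the highest −log10 p gave 19.3% of genes, and the 4304 with the highest fold enrichment 19.4% with 7 member summits downstream. The 1000 most significant peaks left 4 members with 4 peaks, 1 shared and 3 downstream, a median fold enrichment of 18.3 (11.9 for HNRNPM, the only one left of the other 7), 7 other hnRNP genes, 3 SR genes and 4.77% of genes. Peaks at the lowest background alone, which drop those of HNRNPU, HNRNPA1, HNRNPA2B1 and HNRNPK, left 6 members with 7 peaks, 1 shared and 6 downstream, 9 other hnRNP genes, 4 SR genes and 19.9% of genes. These settings keep fewer or more peaks or starts by construction. Of 135 values over 10 alternatives, 103 stayed within their interval or, for counts, within 1.5 times. These include the best fold enrichments of single members, which cannot move while the same peak stays best. A member left without a peak gave no such value and was not counted as moved. The 103 therefore overstate the stability and are not a measure of it. The median fold enrichment of the HNRNPU group was 18.3 to 23.1 throughout.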

Other observations

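Local backgrounds gathered at 2 values. Of 8608 peaks, 5204 (60.5%) stood at the lowest value of 0.853 fragments and 895 (10.4%) within 0.001 fragments of 1.25, which is the ratio of ChIP to input fragments after filtering; 1472 lay between these values and 1037 above both. The best peaks of HNRNPA1 and HNRNPA2B1 are among the 895, as is that of HNRNPA0. The header says that the larger library was scaled towards the smaller, while the pileups are whole numbers.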
